A study of Mus musculus with 9 samples.

Results

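A set of 9 genes that mark macrophage polarization and activation was followed in myeloid cells of dystrophic muscle: *Nos2*, *Retnla*, *Clec10a*, *Mgl2*, *Il4ra*, *Cd80*, *Cd86*, *Cd40*, and *Socs3*. They were chosen by name, with earlier results of these data known, and make up 9 of the 50559 genes listed in the deposited counts. All 9 passed the low-count filter and are among the 16618 genes tested. The RNA came from CD45+CD11b+ cells (CD45 marks leukocytes and CD11b myeloid cells) sorted from quadriceps of *mdx* mice, which lack dystrophin and model Duchenne muscular dystrophy. All mice were *mdx*, including the controls, so that no healthy muscle is part of the comparison. One group was given vehicle, one spironolactone, a mineralocorticoid receptor antagonist, and one prednisolone, a glucocorticoid receptor agonist. Treatment lasted 7 days, and the mice were 4.5 weeks old at collection. Each group has 3 libraries, and each library is a pool of cells from 3 pairs of quadriceps, with both sexes used in the study and the sexes within a pool not given. The *P* values below weigh differences between groups against the spread between such pools.

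Macrophages that meet IL-4 or IL-13 signal through the IL-4 receptor alpha chain and STAT6, and in mice they switch on *Retnla*, *Clec10a*, and *Mgl2*, the pattern often called alternative or M2 activation. Macrophages that meet interferon gamma and microbial products take up the classical or M1 pattern, with *Nos2*, *Cd40*, and the costimulatory ligands *Cd80* and *Cd86*, which T cells read through CD28. SOCS3 restrains cytokine receptor signaling through gp130 and STAT3. In dystrophic muscle both kinds of transcripts are known to occur side by side, and glucocorticoids are known to alter macrophage activation.

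The libraries held 31469815 to 32943512 counts on genes. Levels are given as TMM-normalized CPM, counts scaled to library size, and counting error was small for every gene here but *Nos2*. In the sorted cells the summed level of 10 macrophage markers was alike between groups. It was 19429 to 22036 CPM in vehicle, 19653 to 22211 CPM in spironolactone, and 19851 to 21609 CPM in prednisolone libraries. *Lyz2* was the largest of the 10 markers, at means of 9874, 9536, and 11200 CPM in these groups. Of these markers 3 differed between the drugs, *C1qb* and *C1qc*, complement genes of tissue macrophages, being higher with spironolactone (log2 fold change 0.62 and 0.51; edgeR adjusted *P* = 0.0154 and 0.0408) and *Itgam*, which encodes CD11b itself, lower (log2 fold change -0.43; edgeR adjusted *P* = 0.0353). At an unadjusted edgeR *P* under 0.05, 5 of the 10 were higher and 1 was lower with spironolactone than with prednisolone (22.5% of all genes). The libraries are bulk, and fewer cells of a type and less RNA per cell cannot be told apart. Other cell types were present at lower levels. The sum of 10 neutrophil markers was 697 to 4663 CPM in vehicle, 1293 to 3462 CPM in spironolactone, and 734 to 951 CPM in prednisolone libraries, and that of 10 dendritic cell markers was 1263 to 1425, 1274 to 1693, and 1431 to 1640 CPM. The sum of 7 lymphocyte markers was 4.62 to 8.01, 9.29 to 13.2, and 3.92 to 7.16 CPM, and the T cell marker *Cd3e* stayed at or under 0.760 CPM in all 9 libraries. The sum of 8 monocyte markers was 2060 to 3078, 2101 to 2608, and 2159 to 2854 CPM, and that of 8 fibro-adipogenic markers 1094 to 1403, 1304 to 1760, and 1350 to 1412 CPM. The sum of 8 skeletal muscle markers was 200.4 to 319 CPM in vehicle, below both spironolactone (364 to 615 CPM) and prednisolone libraries (343 to 496 CPM). No gene of these 3 lists was called by edgeR in any comparison, with at most 4 of a list at an unadjusted *P* under 0.05, and their part in the results was not tested.

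Per summed length of annotated exons, the 9 genes spanned nearly the whole range of expression. That length was 4130 bases for *Cd80*, whose canonical transcript has 1701, and 618 by either measure for *Retnla*. The order below depends on the length used. *Socs3* was the most abundant, at a mean of 415 TPM (counts scaled by exon length and depth) over the 9 libraries (266 to 580 TPM). This level was at the 97.7th percentile of the tested genes. *Il4ra* followed at 151 TPM (111 to 200 TPM), *Retnla* at 106 TPM (61.2 to 156 TPM), *Clec10a* at 65.7 TPM (52.1 to 82.0 TPM), *Mgl2* at 61.2 TPM (36.6 to 84.3 TPM), *Cd86* at 52.5 TPM (39.9 to 64.4 TPM), *Cd80* at 48.2 TPM (27.2 to 72.8 TPM), and *Cd40* at 20.3 TPM (11.9 to 28.9 TPM). *Nos2* was last at 0.555 TPM (0.00 to 0.929 TPM), at the 7.70th percentile. The ranges of neighbors in this order overlapped from *Il4ra* down to *Cd40*, whereas *Socs3* stood above *Il4ra* and *Nos2* below *Cd40* in every library. By these levels the cells held transcripts of both activation patterns, with the M1 marker *Nos2* close to undetected.

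**Figure D1:**
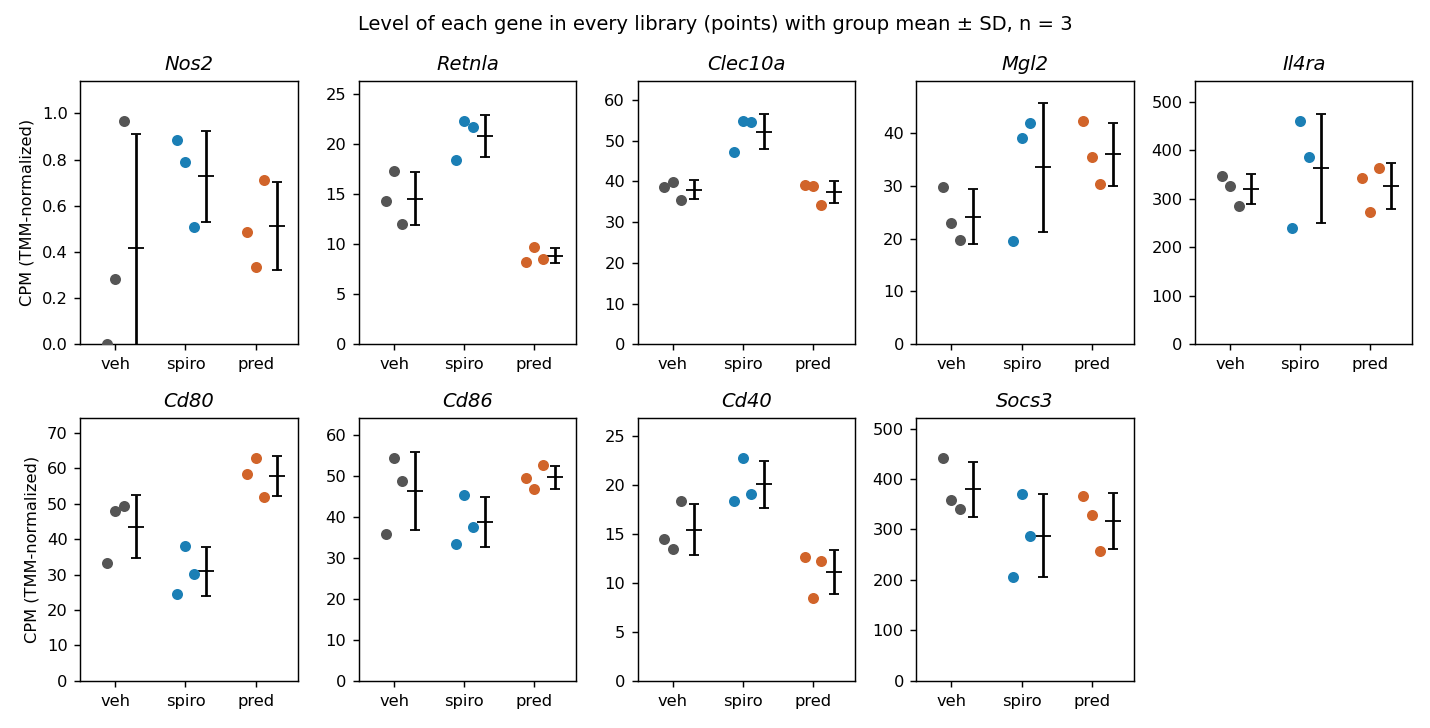
Level of each of the 9 genes in TMM-normalized CPM (vertical axes, linear, from 0) in the 3 vehicle, 3 spironolactone, and 3 prednisolone libraries; each point is a library, and the bar is the group mean ± SD. *Retnla* fell into 3 separate ranges, with prednisolone libraries at 8.26 to 9.75 CPM below vehicle and spironolactone libraries at 18.4 to 22.3 CPM above it, while the *Nos2* ranges of all groups overlapped.

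The difference between the drugs was clearer for these genes than the difference of either drug from vehicle. With the quasi-likelihood test of edgeR and an adjusted *P* under 0.05, 4 of the 9 genes differed between spironolactone and prednisolone, where 5.17% of all tested genes did. *Retnla*, *Clec10a*, and *Cd40* were higher and *Cd80* was lower with spironolactone. An unadjusted *P* under 0.05 was reached by 5 of the 9 (22.5% of all genes), and in 5 the 3 libraries of one drug did not overlap those of the other (30.3% of all genes); these were the same 4 genes and *Cd86*. Against vehicle, prednisolone changed 1 of the 9, *Retnla*, which was lower, where 1.76% of all genes changed. An unadjusted *P* under 0.05 was reached by 3 genes (14.2% of all genes), and 4 did not overlap vehicle (19.7% of all genes): *Retnla* and *Cd40* lay below it and *Cd80* and *Mgl2* above it. Spironolactone changed 0 of the 9 against vehicle, where 0.0181% of all genes changed (3 of 16618), with 4 genes at an unadjusted *P* under 0.05 (9.29% of all genes) and 2, *Retnla* and *Clec10a*, above the vehicle range (13.5% of all genes). DESeq2 called 1 of the 9 in that comparison, *Clec10a*, and 293 of all genes, and limma-voom called 0 of either. The comparisons share libraries: the same 3 vehicle pools serve both drugs, and the pools of each drug also enter the comparison of the drugs.

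**Figure D2:**
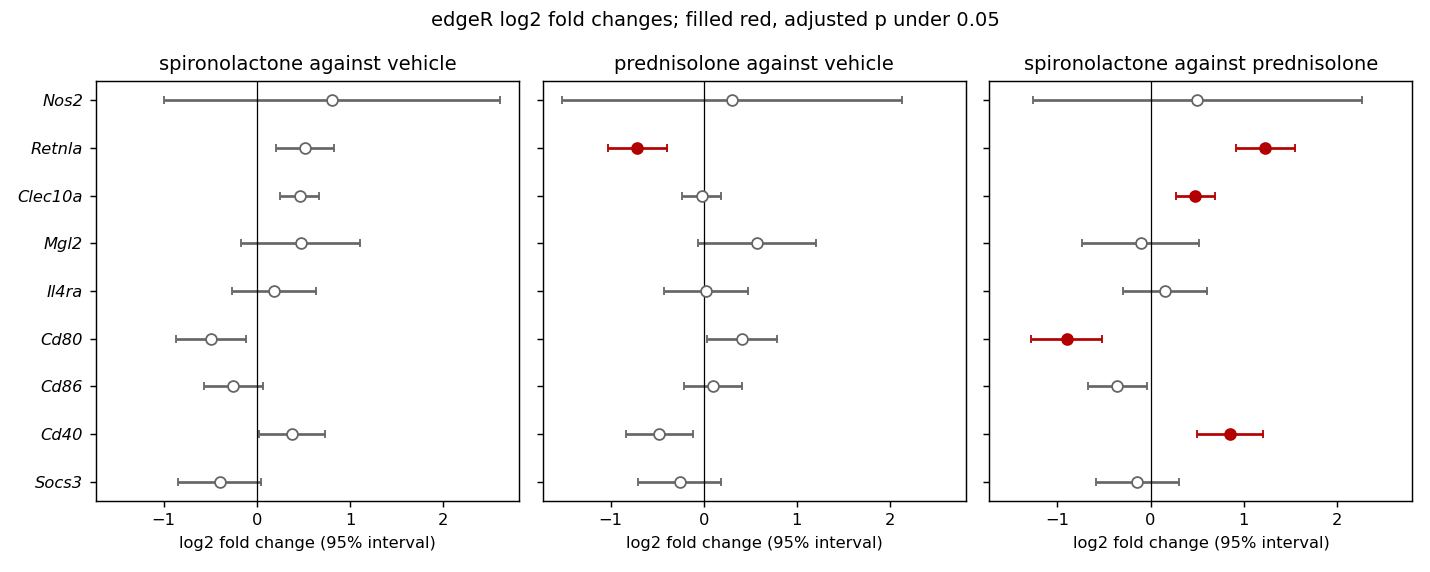
Log2 fold change from edgeR (horizontal axis) with its 95% interval for the 9 genes in the 3 comparisons; filled red points have an adjusted *P* under 0.05. The 5 red points are *Retnla* in prednisolone against vehicle (-0.71) and, in spironolactone against prednisolone, *Retnla* (1.23), *Clec10a* (0.48), *Cd40* (0.85), and *Cd80* (-0.90); the interval of *Nos2* is the widest in each comparison.

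*Retnla* (chr16:48662895-48664824 on GRCm39, plus strand, 4 exons) encodes RELM-alpha, also called FIZZ1, a secreted protein that alternatively activated mouse macrophages release. It was the gene with the clearest separation of the 3 groups. The 250 bases before its annotated start are shown because this window alone, among those of the 9 genes, holds TTC and GAA with 4 bases between them, the spaced palindrome that STAT6 is known to bind, which is found on either strand in 5.89% of 21738 protein-coding promoter windows of the same length. The capitals mark that match, at positions -68 to -59 from the start of the GENCODE canonical transcript; RefSeq places the start further downstream, from which the match is more distant. The window is chr16:48662645-48662894, plus strand.
*Retnla*: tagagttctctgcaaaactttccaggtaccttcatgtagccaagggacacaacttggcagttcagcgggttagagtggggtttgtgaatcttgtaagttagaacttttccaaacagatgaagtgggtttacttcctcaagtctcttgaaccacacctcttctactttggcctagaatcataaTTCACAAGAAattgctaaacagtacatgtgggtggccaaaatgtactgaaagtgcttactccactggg
A match of letters describes the window and does not show binding in these cells.

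*Retnla* measured 14.3, 17.3, and 11.997 CPM in vehicle replicates 1, 2, and 3, against 18.4, 22.3, and 21.7 CPM in spironolactone and 8.26, 9.75, and 8.55 CPM in prednisolone. No library of one group reached the range of another. The group means were 14.5 ± 2.65 CPM in vehicle, 20.8 ± 2.07 CPM in spironolactone, and 8.85 ± 0.789 CPM in prednisolone (SD, n = 3). Prednisolone lowered it against vehicle by a log2 fold change of -0.71 ± 0.15 (SE; 0.609-fold; edgeR adjusted *P* = 0.0263). That call was lost without vehicle replicate 2 (adjusted *P* = 0.113) or without prednisolone replicate 1, 2, or 3 (adjusted *P* = 0.109, 0.0935, and 0.102), and with limma-voom (adjusted *P* = 0.0544) or a fit of the compared groups alone (adjusted *P* = 0.0514), with fold changes of -0.83 to -0.57 throughout. The spironolactone value was 0.52 ± 0.14 above vehicle on the log2 scale (95% interval 0.21 to 0.83; adjusted *P* = 0.208), so that the libraries were separate but the adjusted test was not passed. Between the drugs *Retnla* was 2.35-fold higher with spironolactone (log2 fold change 1.23 ± 0.15; adjusted *P* = 0.000633), and this held in all 8 alternative fits and in each of the 9 fits that left out a library.

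*Clec10a* (chr11:70047023-70061660, plus strand) and *Mgl2* (chr11:70020954-70028376, plus strand) are neighboring genes that encode the galactose-type lectins CD301a and CD301b. Both are IL-4 targets in macrophages, and *Mgl2* also marks a subset of dendritic cells. Their transcripts are close relatives: 9.97% of the 50-base words of *Clec10a* are also in *Mgl2* (13.9% of those of *Mgl2*), and reads from these stretches could have been split between them or left out. The windows before their starts also share sequence. Of the 36 pairs of windows among the 9 genes, this pair had the most alike gapless stretch of 30 bases, with 26 identical (86.7%), shown here with capitals at the bases that differ, at chr11:70057229-70057258 and chr11:70020845-70020874, both plus strand.
*Clec10a*: ggcaggaagTaaatgaagatGCgGggcata
*Mgl2*: ggcaggaagCaaatgaagatAAgAggcata
The stretch lies at -239 to -210 from the start of the canonical transcript of *Clec10a*, which lies inside the span of the gene given above, and at -109 to -80 from that of *Mgl2*.

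The difference between the lectin genes was not tested. *Clec10a* measured 38.6, 39.8, and 35.4 CPM in vehicle, 47.2, 54.8, and 54.5 CPM in spironolactone, and 39.2, 38.8, and 34.2 CPM in prednisolone. All 3 spironolactone libraries lay above all 6 others, and the vehicle and prednisolone ranges overlapped. *Clec10a* was 1.395-fold higher with spironolactone than with prednisolone (log2 fold change 0.48 ± 0.10; edgeR adjusted *P* = 0.0135). Without spironolactone replicate 2 or 3, or without prednisolone replicate 2 or 3, the adjusted *P* was 0.0588, 0.0620, 0.0554, and 0.0671. Against vehicle the spironolactone value was 0.46 ± 0.10 (95% interval 0.25 to 0.67; adjusted *P* = 0.120 with edgeR, 0.00504 to 0.206 over the alternative fits), and the prednisolone value was -0.02 ± 0.10 (95% interval -0.23 to 0.19).

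*Mgl2* measured 29.8, 23.0, and 19.7 CPM in vehicle, 19.5, 39.1, and 41.8 CPM in spironolactone, and 42.2, 35.4, and 30.3 CPM in prednisolone. Prednisolone libraries all lay above vehicle, narrowly, while spironolactone replicate 1 was the lowest of the 9 libraries and its companions were among the highest. No comparison passed the edgeR test. With no low-count filter both drugs did against vehicle (edgeR adjusted *P* = 0.00909 for spironolactone and 0.000114 for prednisolone). In that fit the fold changes were nearly the same (0.47 and 0.59), and the SE was 0.12 in place of 0.28 for both. The log2 fold change was 0.57 ± 0.28 for prednisolone (95% interval -0.06 to 1.21; adjusted *P* = 0.407), 0.47 ± 0.28 for spironolactone (95% interval -0.17 to 1.10; adjusted *P* = 0.670), and -0.10 ± 0.28 between the drugs (95% interval -0.73 to 0.53). Without spironolactone replicate 1 the spironolactone value against vehicle was 0.74 (edgeR adjusted *P* = 0.185). Without spironolactone replicate 2 or 3 it was 0.34 and 0.28, and without vehicle replicate 3 it was 0.33. Within a library, *Clec10a* counts were 1.30 to 1.80 times those of *Mgl2* in vehicle, 1.30 to 2.42 times in spironolactone, and 0.928 to 1.13 times in prednisolone libraries, so that the prednisolone range lay below both others. Dendritic cell markers, which bear on *Mgl2*, had 1 of 10 called higher in prednisolone than in vehicle (*Itgax*, encoding CD11c, also found on macrophages, log2 fold change 0.80, adjusted *P* = 0.0197), with 4 higher and 1 lower at an unadjusted *P* under 0.05 (14.2% of all genes) and a median log2 fold change of 0.11. Their sum lay above vehicle in all prednisolone libraries (1431 to 1640 against 1263 to 1425 CPM). By group mean *Itgax* went from 327 CPM in vehicle to 569 CPM in prednisolone. *Cst3*, the largest part of the sum, went from 940 to 893 CPM. *Batf3*, *Clec9a*, and *Ccr7* were also lower on average, and *Flt3*, *Zbtb46*, *Cd209a*, *Xcr1*, and *Siglech* were higher. With spironolactone against vehicle 0 of the 10 were called, 5 were higher and 0 lower at an unadjusted *P* under 0.05 (9.29% of all genes), and their median log2 fold change was 0.43. Between the drugs *Batf3* was higher and *Itgax* lower with spironolactone (log2 fold change 0.93 and -0.68; adjusted *P* = 0.0187 and 0.0238). The part of dendritic cells in the values of *Mgl2* and *Clec10a* was not tested.

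*Nos2* (chr11:78811613-78851080, plus strand) encodes the inducible nitric oxide synthase, which makes nitric oxide from arginine. It had 0, 9, and 31 counts in vehicle, 28, 25, and 16 in spironolactone, and 16, 11, and 24 in prednisolone, or 0.00 to 0.966 CPM. The 0 in vehicle replicate 1 allows a level of up to 0.0912 CPM by counting error alone. Vehicle held both the lowest and the highest library, so that the groups overlapped fully. The log2 fold change was 0.81 ± 0.83 for spironolactone (95% interval -0.99 to 2.61) and 0.30 ± 0.84 for prednisolone (95% interval -1.52 to 2.13), and both values depended on single vehicle libraries. Without vehicle replicate 1 they were 0.22 and -0.28, without vehicle replicate 3 they were 2.35 and 1.85, and with limma-voom on all libraries they were 2.16 and 1.64.

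*Il4ra* (chr7:125151079-125182844, plus strand) encodes the receptor chain through which IL-4 and IL-13 act. It measured 346, 327, and 285 CPM in vehicle, 240, 460, and 387 CPM in spironolactone, and 342, 272, and 363 CPM in prednisolone. The groups overlapped, and the spironolactone pools covered both the lowest and the highest value. The log2 fold change was 0.18 ± 0.20 for spironolactone (95% interval -0.27 to 0.63; edgeR adjusted *P* = 0.861) and 0.03 ± 0.20 for prednisolone (95% interval -0.42 to 0.48; edgeR adjusted *P* = 0.970). *Socs3* (chr11:117856905-117860898, minus strand) measured 442, 358, and 340 CPM in vehicle, 206, 370, and 287 CPM in spironolactone, and 367, 329, and 257 CPM in prednisolone. Its values were lower on average with either drug than with vehicle, and the groups overlapped. The log2 fold change was -0.40 ± 0.20 for spironolactone (95% interval -0.85 to 0.05, edgeR adjusted *P* = 0.585). For prednisolone it was -0.26 ± 0.20 (95% interval -0.70 to 0.19, edgeR adjusted *P* = 0.628). Without spironolactone replicate 1 or 2 the spironolactone value was -0.21 and -0.62. Without vehicle replicate 1 or prednisolone replicate 3 the prednisolone value was -0.14 and -0.13.

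Of the costimulatory genes, *Cd80* was lower and *Cd40* higher with spironolactone than with prednisolone, *Cd86* was called in no comparison by the main test, and none of the 3 was called against vehicle. *Cd80* (chr16:38275923-38316697, plus strand) and *Cd86* (chr16:36424044-36486443, minus strand) encode the B7 ligands that CD28 and CTLA-4 on T cells recognize. *Cd40* (chr2:164897544-164914868, plus strand) encodes the receptor for CD40 ligand, by which T cells activate macrophages, dendritic cells, and B cells. *Cd80* measured 33.4, 48.0, and 49.4 CPM in vehicle, 24.5, 38.2, and 30.3 CPM in spironolactone, and 58.5, 63.0, and 51.8 CPM in prednisolone. Prednisolone libraries lay above all others, and spironolactone libraries overlapped vehicle only through vehicle replicate 1. *Cd80* was lower with spironolactone than with prednisolone (0.536-fold; log2 fold change -0.90 ± 0.17; edgeR adjusted *P* = 0.0151). The adjusted *P* was 0.0782 without spironolactone replicate 3, 0.0584 without prednisolone replicate 1, and 0.0642 without prednisolone replicate 2. Against vehicle the values were -0.49 ± 0.17 for spironolactone (95% interval -0.87 to -0.11; adjusted *P* = 0.391) and 0.41 ± 0.17 for prednisolone (95% interval 0.03 to 0.78; adjusted *P* = 0.305). With no low-count filter both passed (edgeR adjusted *P* = 0.00190 and 0.00830), at an SE of 0.11 in place of 0.17. Without vehicle replicate 1 the values were -0.65 for spironolactone and 0.25 for prednisolone (edgeR adjusted *P* = 0.141 and 0.420). Whether counting used strand is not stated, and *Cd80* shares exon positions with *Timmdc1* on the other strand, which was at 12.4 ± 2.32 CPM in vehicle, 11.4 ± 0.682 CPM in spironolactone, and 11.46 ± 0.441 CPM in prednisolone (log2 fold change between the drugs -0.01 ± 0.15).

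*Cd86* measured 35.8, 54.4, and 48.8 CPM in vehicle, 33.4, 45.5, and 37.6 CPM in spironolactone, and 49.5, 46.9, and 52.7 CPM in prednisolone. The drugs' libraries did not overlap, by a narrow margin, and vehicle overlapped both. The log2 fold change between the drugs was -0.36 ± 0.15 (95% interval -0.67 to -0.04; edgeR adjusted *P* = 0.170). It was called in a fit of the compared groups alone, without a low-count filter, and without vehicle replicate 1 (lowest adjusted *P* = 0.0212 and, without that replicate, 0.0410).

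*Cd40* measured 14.5, 13.4, and 18.4 CPM in vehicle, 18.3, 22.8, and 19.1 CPM in spironolactone, and 12.6, 8.50, and 12.2 CPM in prednisolone. Prednisolone libraries lay below all others, and spironolactone libraries lay above vehicle except for vehicle replicate 3, which was just over the lowest of them. Between the drugs *Cd40* was 1.81-fold higher with spironolactone (log2 fold change 0.85 ± 0.17; edgeR adjusted *P* = 0.0119). The adjusted *P* was 0.0552 without spironolactone replicate 2 and 0.0595 without prednisolone replicate 2. Against vehicle the values were 0.38 ± 0.16 for spironolactone (95% interval 0.02 to 0.73; adjusted *P* = 0.503) and -0.48 ± 0.17 for prednisolone (95% interval -0.83 to -0.12; adjusted *P* = 0.193). B cells express *Cd40* as well, and the B cell marker *Cd79a* had a mean of 1.498 CPM with spironolactone against 0.151 CPM with prednisolone (log2 fold change 3.28, adjusted *P* = 0.0119). Endothelial cells can express it too, and the sum of 8 endothelial markers was 96.2 to 136 CPM in vehicle, 182 to 250 CPM in spironolactone, and 123 to 149 CPM in prednisolone libraries, with 4 of 8 called higher with spironolactone than with prednisolone. Endothelial cells lack CD45 and most B cells lack CD11b, and markers of both were nonetheless counted in the sorted libraries. The part of either cell type in the *Cd40* values was not tested.

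The window before *Cd40* is shown because it carries a close pair of matches to GGG and CC with 5 bases between them, the letters shared by many NF-kappaB sites, in capitals at -83 to -74 and -72 to -62, where a run of 11 bases holds 2 overlapping matches. The window is chr2:164897294-164897543, plus strand.
*Cd40*: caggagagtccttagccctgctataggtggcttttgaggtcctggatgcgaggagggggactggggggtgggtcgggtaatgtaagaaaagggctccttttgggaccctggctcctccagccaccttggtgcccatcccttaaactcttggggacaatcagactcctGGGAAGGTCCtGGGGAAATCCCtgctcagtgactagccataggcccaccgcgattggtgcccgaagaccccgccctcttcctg
These letters are common: 47.9% of all windows hold them on either strand, as do those of 6 of the 9 genes (*Nos2*, *Clec10a*, *Cd80*, *Cd86*, *Cd40*, and *Socs3*).

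The full palindrome of the glucocorticoid response element, GNACA and TGTNC with 3 bases between them, was in 0.299% of all windows and in those of 0 of the 9 genes, which says only that these letters are not in these 250 bases. Its single arm AGAACA, on either strand, was in 14.3% of all windows and in those of *Clec10a* and *Cd80*. These matches are shown in capitals with their flanks, at chr11:70057263-70057292 for *Clec10a*, at chr16:38279089-38279118 for the first of *Cd80*, and at chr16:38279171-38279200 for the second, all plus strand.
*Clec10a*: aaaactgcaagcTGTTCTttttggtcaatc
*Cd80*, first: accacctcactgTGTTCTagtgttagtcac
*Cd80*, second: cacccggtgctcAGAACAggcctggacaag
*Socs3* alone held TTCNNNGAA, a STAT-type palindrome with a shorter spacer found in 7.69% of windows, at -223 to -215 from its start. The windows of *Clec10a*, *Il4ra*, *Cd80*, *Cd86*, and *Socs3* overlap annotated exons of other transcripts of the same genes, and that of *Cd80* also an exon of the noncoding gene *Gm60172*.

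Ratios of counts within a library do not depend on library size. Those described here were chosen after the levels were seen, and they have no test. *Cd40* counts relative to *Cd80* were 0.435, 0.280, and 0.372 in vehicle, 0.749, 0.597, and 0.631 in spironolactone, and 0.215, 0.135, and 0.236 in prednisolone libraries. The 3 groups did not overlap, and the mean ratio was 0.659 ± 0.0800 with spironolactone against 0.195 ± 0.0533 with prednisolone. *Cd80* relative to *Cd86* was 0.881 to 1.01 in vehicle, 0.731 to 0.839 in spironolactone, and 0.984 to 1.34 in prednisolone libraries, so that the balance of the B7 ligands was also separate between the drugs. *Retnla* relative to *Clec10a* was 0.339 to 0.434 in vehicle, 0.391 to 0.407 in spironolactone, and 0.211 to 0.251 in prednisolone. The spironolactone range lay inside that of vehicle, and the prednisolone range below both.

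**Figure D3:**
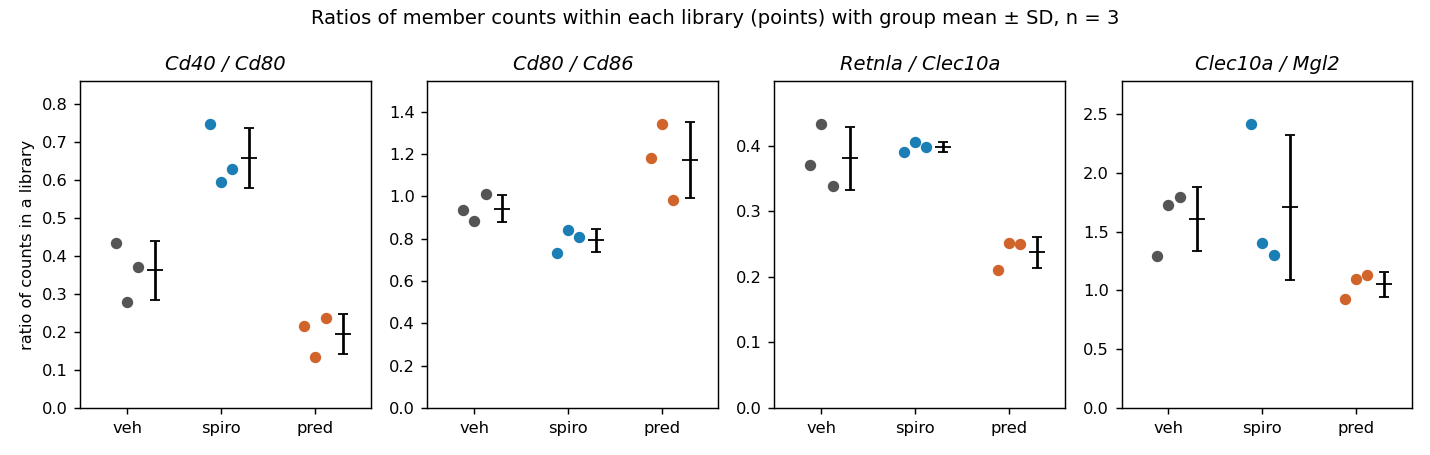
Ratio of counts of the named pair of genes within each library (vertical axes, no unit, linear, from 0); each point is a library, and the bar is the group mean ± SD (n = 3). *Cd40* relative to *Cd80* fell into 3 separate ranges (0.280 to 0.435 in vehicle, 0.597 to 0.749 in spironolactone, 0.135 to 0.236 in prednisolone), and *Retnla* relative to *Clec10a* was lower in the prednisolone libraries alone.

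The 9 genes also varied by library within a group. Spironolactone replicate 1 was the lowest of its group for 8 of the 9 genes (all but *Nos2*), where it was the lowest for 37.7% of all tested genes, and spironolactone replicate 2 was the highest for 7 of the 9 (30.2% of all tested genes). In the vehicle and prednisolone groups no library was lowest for more than 5 of the 9. Spironolactone replicate 1 also had the highest share of reads or pairs that were assigned to no gene, 21.8%, against 17.2% to 20.1% in the other libraries.

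Around these genes, 102 of 113 genes in 8 lists of related pathways were tested. Of them 7 changed with prednisolone against vehicle (6.86%, beside 1.76% of all genes), 15 differed between the drugs (14.7%, beside 5.17%), and 0 changed with spironolactone against vehicle by edgeR (20 at an unadjusted *P* under 0.05, beside 9.29% of all genes, 6 by DESeq2, which called 293 of all genes, and 0 by limma-voom). No list was tested as a set.

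In IL-4 and IL-13 signaling 1 of 10 tested genes changed. *Il2rg*, the common gamma chain that pairs with IL-4 receptor alpha, rose with prednisolone (186 ± 12.5 against 139 ± 12.1 CPM; edgeR adjusted *P* = 0.0440) and was lower with spironolactone than with prednisolone (140 ± 12.1 CPM; edgeR adjusted *P* = 0.0303). *Klf4* and *Cish*, with the smallest unadjusted *P* for spironolactone against vehicle, had log2 fold changes of -0.44 and -0.42 (edgeR adjusted *P* = 0.336 and 0.503). The ligand genes *Il4* and *Il13* did not pass the filter. Among 15 alternative activation targets, *Alox15*, a lipoxygenase that IL-4 and IL-13 induce and that eosinophils also carry, fell with prednisolone (18.4 ± 5.11 against 60.8 ± 10.7 CPM; log2 fold change -1.73 ± 0.22; edgeR adjusted *P* = 0.00545). It was the 1 gene of the list that was lower at an unadjusted *P* under 0.05 in that comparison, where 5 were higher (14.2% of all genes in either direction), and the median log2 fold change of the list was 0.27, beside -0.01 over all genes. *Alox15* was 4.42-fold higher with spironolactone (81.2 ± 17.3 CPM) than with prednisolone (edgeR adjusted *P* = 0.00124). In the same comparison *F13a1*, the coagulation factor XIII A chain (389 ± 46.9 against 717 ± 59.7 CPM; edgeR adjusted *P* = 0.00358), and *Cd163*, the hemoglobin scavenger receptor (13.8 ± 3.35 against 26.2 ± 3.74 CPM; edgeR adjusted *P* = 0.0448), were lower with spironolactone. At an unadjusted *P* under 0.05, 1 of the 15 was higher and 6 were lower with spironolactone than with prednisolone, and the median log2 fold change of the list was -0.28, beside 0.03 over all genes. Among the 6 was *Chil3*, a chitinase-like gene (432 ± 124 against 1141 ± 132 CPM; edgeR adjusted *P* = 0.0833), named after its values were seen. *Cd209a*, with the smallest unadjusted *P* of this list for spironolactone against vehicle, was at 51.6 ± 16.6 against 28.01 ± 3.34 CPM (edgeR adjusted *P* = 0.188), and *F13a1* there had a log2 fold change of -0.40 (edgeR adjusted *P* = 0.337). The sum of 8 eosinophil and mast cell markers was lower in the prednisolone libraries, as were *Retnla* and *Alox15*. The sum was 44.9 to 76.1 CPM in vehicle, 40.3 to 78.3 CPM in spironolactone, and 27.1 to 35.2 CPM in prednisolone libraries. Of the 7 tested, 3 (*Siglecf*, *Ccr3*, and *Il5ra*) were called lower with prednisolone than in either other group. *Cpa3*, *Mcpt4*, and *Kit* went the other way by group mean. They were at 2.31, 3.59, and 5.28 CPM with prednisolone against 1.47, 2.03, and 3.52 CPM with vehicle. For 2 of the 7 all prednisolone libraries lay above those of vehicle, and 0 were called higher. The spironolactone sums overlapped those of vehicle. *Prg2*, a granule protein that defines eosinophils, was at 8.16 ± 13.1 CPM in vehicle, 2.80 ± 2.62 CPM in spironolactone, and 0.190 ± 0.118 CPM in prednisolone (edgeR adjusted *P* = 0.328 for prednisolone against vehicle). *Epx*, another, did not pass the filter and was at 3.12 ± 5.21, 0.274 ± 0.269, and 0.0200 ± 0.0173 CPM. The part of the cells that carry these markers in the *Retnla* and *Alox15* values was not tested.

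On the side of interferon gamma, 3 of 8 tested signaling genes differed between the drugs, all higher with spironolactone. They were *Irf1* (88.7 ± 7.17 against 63.7 ± 1.88 CPM; edgeR adjusted *P* = 0.00781), *Irf8* (292 ± 15.5 against 214 ± 12.8 CPM; edgeR adjusted *P* = 0.0129), both transcription factors, and *Ciita*, the master regulator of MHC class II genes (110.5 ± 17.0 against 78.6 ± 4.90 CPM; edgeR adjusted *P* = 0.0416). *Irf1* fell with prednisolone against vehicle (89.2 ± 3.24 CPM; log2 fold change -0.49; edgeR adjusted *P* = 0.0122). For spironolactone against vehicle *Ciita* and *Jak2* had log2 fold changes of 0.54 and -0.15 (edgeR adjusted *P* = 0.151 and 0.601). Of 15 classical activation targets tested, 1 differed: the chemokine gene *Ccl5* was higher with spironolactone than with prednisolone (10.3 ± 1.65 against 4.47 ± 1.45 CPM; edgeR adjusted *P* = 0.0221). Against vehicle none of the list passed the edgeR test for either drug, and its median log2 fold change was -0.45 with spironolactone and -0.44 with prednisolone, against 0.19 between the drugs. With prednisolone *Ccl5* was at 4.47 ± 1.45 against 8.95 ± 2.57 CPM and *Gbp2* at 38.4 ± 8.63 against 53.7 ± 12.1 CPM (edgeR adjusted *P* = 0.0789 and 0.307), with 2 of 15 genes at an unadjusted *P* under 0.05 (14.2% of all genes). *Tnf* and *Cd38* had -0.64 and 0.42 with spironolactone (edgeR adjusted *P* = 0.277 and 0.521), again with 2 of 15 (9.29% of all genes).

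In the arginine metabolism list 1 of 12 tested genes changed. *Slc7a1*, which encodes the cationic amino acid transporter CAT-1, rose with prednisolone (45.5 ± 6.04 against 31.8 ± 1.74 CPM; edgeR adjusted *P* = 0.0362) and was 0.481-fold as high with spironolactone (21.9 ± 2.43 CPM) as with prednisolone (edgeR adjusted *P* = 0.000414). For spironolactone against vehicle *Slc7a1* had a log2 fold change of -0.54 (edgeR adjusted *P* = 0.129), and *Odc1*, the ornithine decarboxylase of polyamine synthesis, had -0.66 (edgeR adjusted *P* = 0.161).

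In the costimulation list 3 of 15 tested genes changed with prednisolone against vehicle and 4 of 15 differed between the drugs. *Cd274*, encoding the inhibitory ligand PD-L1, fell with prednisolone (35.4 ± 2.74 against 69.1 ± 6.66 CPM; log2 fold change -0.97 ± 0.11; edgeR adjusted *P* = 0.00116) and was higher with spironolactone than with prednisolone (48.2 ± 6.30 CPM; edgeR adjusted *P* = 0.0343). *Cd276*, encoding B7-H3, rose with prednisolone (37.6 ± 4.13 against 19.97 ± 3.33 CPM; edgeR adjusted *P* = 0.00333) and was lower with spironolactone than with prednisolone (22.9 ± 1.20 CPM; edgeR adjusted *P* = 0.00736). *Cd28*, the receptor of the B7 ligands, fell with prednisolone (5.88 ± 0.609 against 10.9 ± 1.87 CPM; edgeR adjusted *P* = 0.0159) and was higher with spironolactone than with prednisolone (13.9 ± 2.08 CPM; edgeR adjusted *P* = 0.00177). *Traf3*, an adaptor and brake of CD40 signaling, was lower with spironolactone than with prednisolone (39.3 ± 2.58 against 55.9 ± 3.15 CPM; edgeR adjusted *P* = 0.00812). T cells express *Cd28* and, with NK cells, *Ccl5*. Of the 7 lymphocyte markers 3 (*Cd79a*, *Nkg7*, and *Ncr1*) were called higher with spironolactone than with prednisolone, with a median log2 fold change of 1.71 over the 7, and none was called for prednisolone against vehicle (median -0.68). Their part in the *Cd28* and *Ccl5* values was not tested. Against vehicle, spironolactone gave log2 fold changes of -0.52 for *Cd274* and -0.56 for *Cd83* (edgeR adjusted *P* = 0.128 and 0.366).

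In the SOCS and STAT3 list 1 of 16 genes was called. *Socs1*, which restrains interferon and IL-4 receptor signaling, was higher with spironolactone than with prednisolone (9.06 ± 1.94 against 5.16 ± 0.830 CPM; edgeR adjusted *P* = 0.0411). *Pim1* and *Il10* had log2 fold changes of -0.54 and -1.44 with prednisolone against vehicle (edgeR adjusted *P* = 0.0884 and 0.127), and *Socs7* and *Pim1* had -0.34 and -0.44 with spironolactone (edgeR adjusted *P* = 0.206 and 0.326). Among relatives of *Retnla* and of the lectins, 1 of 11 was called: *Colec12*, a scavenger lectin, was lower with spironolactone than with prednisolone (59.9 ± 4.52 against 78.3 ± 7.63 CPM; edgeR adjusted *P* = 0.0407). *Retnlg*, a resistin-like gene of neutrophils, was at 26.6 ± 3.17 CPM with prednisolone and 81.5 ± 69.5 CPM with vehicle (edgeR adjusted *P* = 0.324), and *Clec4a3* had a log2 fold change of -0.40 there (edgeR adjusted *P* = 0.148). *Colec12* and *Clec4e* had -0.24 and -0.84 with spironolactone against vehicle (edgeR adjusted *P* = 0.488 and 0.553).

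**Figure D4:**
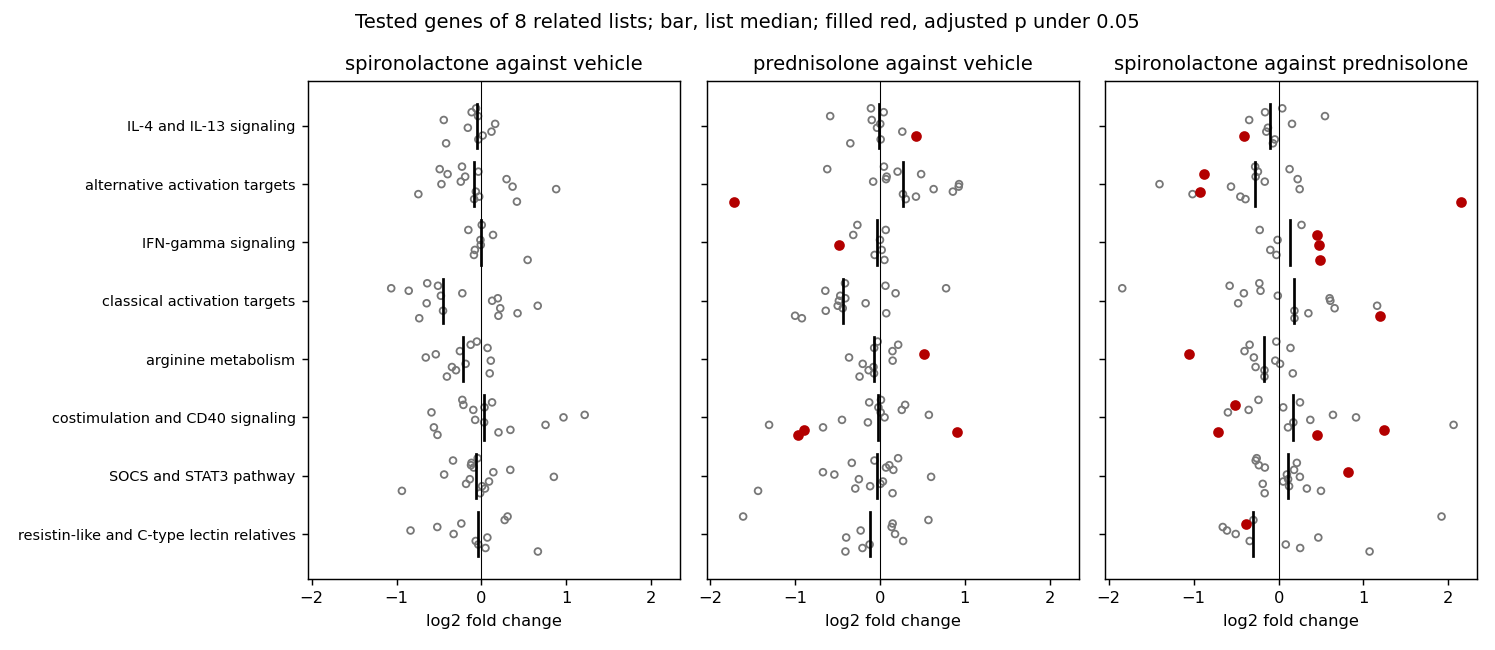
Log2 fold change from edgeR (horizontal axis) of each tested gene of the 8 related lists (rows) in the 3 comparisons; the vertical bar is the median of the list, and filled red points have an adjusted *P* under 0.05. No point is red for spironolactone against vehicle, 7 are for prednisolone against vehicle, and 15 are between the drugs, with *Alox15* at 2.14 the farthest of these from 0.

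As a description of pattern, the genes most like the 3 most variable of the 9 were found over the 9 libraries by Pearson's r of log2 CPM; they were the highest of all tested genes, so that a high r is built in. For *Retnla* they were *Zfyve19* (r = 0.98, Spearman's rho = 0.98), *Stard5* (r = 0.97, rho = 0.92), and *Gnas* (r = 0.97, rho = 0.97). For *Cd80* they were *Chp1* (r = 0.99, rho = 0.97), *Sphk1* (r = 0.97, rho = 0.93), and *Glud1* (r = 0.97, rho = 0.95). For *Nos2*, whose spread rests on the 0 in vehicle replicate 1, they were *Rbm43* (r = 0.97, rho = 0.88), *Clip4* (r = 0.95, rho = 0.72), and *Zfp964* (r = 0.92, rho = 0.75).

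Transcripts that rise when tissue is dissociated also differed by group. The summed level of 11 immediate early and stress genes was 11305 to 11871 CPM in vehicle, 9056 to 9447 CPM in spironolactone, and 5930 to 8776 CPM in prednisolone libraries. With prednisolone 6 of the 11 were lower than with vehicle (edgeR adjusted *P* under 0.05, beside 1.76% of all genes). By the same test 4 were higher with spironolactone than with prednisolone (beside 5.17% of all genes). For spironolactone against vehicle 0 were called, and 5 were lower at an unadjusted *P* under 0.05 (9.29% of all genes). The groups did not overlap in the summed level, and its part in the levels of *Retnla*, *Cd40*, *Cd80*, and *Clec10a* was not tested.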

How the data were processed

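RNA was sequenced from CD45+CD11b+ cells sorted from *mdx* quadriceps, 3 pools for each of vehicle, spironolactone, and prednisolone. Per the submitters' processing notes, the tools were HISAT2 2.2.1, HTSeq 0.11.3, and DESeq2 1.32.0 with build mm39; the deposited values are whole-number counts of aligned reads or pairs per gene, not normalized by the authors. The strand setting and annotation release are not given in the sources used here. Lines that name no gene (17.2% to 21.8% of reads or pairs) were left out. The 3 deposited comparison tables hold fold changes and *P* values of the authors and were not used here. Members and lists were chosen with earlier results of these data known; 1 of the 10 members and 1 lymphocyte marker are not reported here.

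The main test was the edgeR 4.0.16 quasi-likelihood F test in R 4.3.3, two-sided, on all 9 libraries together (TMM, robust, filterByExpr with minimum count 10). *P* values were adjusted by Benjamini-Hochberg across the 16618 genes left, with a threshold of 0.05. Intervals and SE are from that test; SE is the log2 fold change over the root of F. Replicate pools differed by more than counting error (chi-square per degree of freedom 18.0 to 57.8 between pools of a group), and no pool was counted as a copy. An exact permutation of 3 against 3 cannot give a *P* under 0.1, so none was used. TPM used summed exon lengths from GENCODE on GRCm39 for 40303 matched symbols (at least 90.95% of counts). Promoter windows are the 250 bases before the canonical start. Members and genes of the 8 related lists were named by a fixed rule: all reported members, up to 4 called genes per list and comparison by *P* (otherwise the 2 with the smallest *P*), and the 3 most correlated genes for the 3 most variable of these members. Marker genes, *Chil3*, *Il4*, *Il13*, and *Timmdc1* were named outside it, after their values were seen. Alternatives were DESeq2 1.42.0, limma-voom (limma 3.58.1), 2-group fits, RLE or library totals, 2 other filters, a replicate block, and leaving out each library. The scripts were tested on simulated data. Opposite-strand noncoding genes share exon positions with *Nos2*, *Il4ra*, *Cd80*, and *Socs3*.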

Additional observations from a re-analysis of the deposited data

How the results depend on the processing

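For the 9 genes, DESeq2 called 1 (*Clec10a*) and a fit with no low-count filter called 5 with spironolactone against vehicle (*Retnla*, *Clec10a*, *Mgl2*, *Cd80*, and *Socs3*); for prednisolone against vehicle limma-voom and the 2-group fit called 0 and the fit with no filter 3 (*Retnla*, *Mgl2*, and *Cd80*). Leaving out 1 library at a time gave 0 to 1 calls for prednisolone against vehicle and 1 to 5 between the drugs. Over all genes, spironolactone against vehicle had 293 calls with DESeq2, 0 with limma-voom, 528 with no filter, and 0 to 34 without a library; prednisolone against vehicle had 738 with DESeq2, 1019 with no filter, and 69 to 826 without a library; the drugs differed in 1739 genes with DESeq2, 1598 in the 2-group fit, 1940 with no filter, and 232 to 1898 without a library. With no filter the SE for spironolactone against vehicle was smaller for *Mgl2* (0.12 in place of 0.28) and *Socs3* (0.11 in place of 0.20). For *Clec10a* it was slightly larger (0.11 in place of 0.10). The cause of these differences between fits was not tested.

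In the 8 related lists DESeq2 called 17 genes for prednisolone against vehicle and 22 between the drugs, the fit with no filter 22, 27, and 35 in the 3 comparisons, and fits without a library 0 to 2, 3 to 10, and 6 to 24.

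Directions of called members were kept in every alternative; signs turned only where values were near 0 or uncertain. *Clec10a* with prednisolone against vehicle was 0.0032 with library totals alone and -0.066 to 0.040 without a library. Without a library, log2 fold changes spanned 0 for *Il4ra* (-0.027 to 0.41 with spironolactone, -0.057 to 0.14 with prednisolone, -0.056 to 0.38 between the drugs), *Nos2* (-0.28 to 1.85 with prednisolone), *Cd86* (-0.055 to 0.23 with prednisolone), and, between the drugs, *Mgl2* (-0.30 to 0.17) and *Socs3* (-0.37 to 0.049).

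Whether replicate numbers pair libraries is not given, and the main test did not pair them. Residual correlations between groups were -0.04 to 0.15 for same-numbered libraries and -0.17 to 0.04 for the others. The highest were vehicle 3 with spironolactone 3 (0.15) and vehicle 1 with spironolactone 1 (0.12). The replicate block gave 8 calls over all genes for spironolactone against vehicle, in place of 3. It gave 336 in place of 293 for prednisolone against vehicle and 1082 in place of 859 between the drugs. The members called were the same as without it. Depth limited *Nos2* alone among the 9.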
